A study of Mus musculus with 10 samples.

Results

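Untreated cells of 2 mesenchymal mouse breast cancer lines, MTΔECad and Py2T-LT, were compared across all expressed genes. The comparison used the control libraries of each line, 2 of MTΔECad and 2 of Py2T-LT, which are 4 of the 10 libraries of the series and were taken by their labels. The other libraries were 2 of MTΔECad cells given rosiglitazone, 2 of Py2T-LT cells given a MEK inhibitor and 2 of Py2T-LT cells given BMP2 and the MEK inhibitor. They entered the fit and are otherwise used below only to see whether a difference between the lines was also present in treated cells. All cells were labelled as harvested at 7 days, although the titles of the MTΔECad controls do not name a day. Control cells received medium with DMSO, the solvent of the compounds. RNA came from 2 independent experiments, per the labels' protocols.

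Py2T cells are known as a line from a mammary tumour of a mouse with the polyoma middle T transgene under the MMTV promoter, and the long-term (LT) cells as Py2T cells that became mesenchymal under prolonged TGF-β. MTΔECad cells are known as a line from an MMTV-Neu mammary tumour in which the floxed E-cadherin gene was removed. The labels do not say whether the control medium of either line held TGF-β. Each is a single line, so the tumour driver, the mouse, the E-cadherin deletion and the culture history cannot be told apart as sources of a difference. In an epithelial-mesenchymal transition (EMT), epithelial cells lose the junctions that E-cadherin builds. Transcription factors of the Snail, Zeb and Twist families repress junction genes, while matrix, contractile and motility genes come on. Cells can be mesenchymal with different sets of these genes switched on.

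Levels are CPM, counts scaled to the size of the library with TMM factors. They are given for replicate 1 and then replicate 2, first of MTΔECad and then of Py2T-LT, and a value in parentheses is the log2 fold change of MTΔECad over Py2T-LT with its standard error (n = 2 libraries a line). A gene was called at a Benjamini-Hochberg adjusted p under 0.05 in edgeR's quasi-likelihood test over 13149 genes. Of these, 8020 (61%) were called, 3857 (29.3%) higher and 4163 (31.7%) lower in MTΔECad. With a log2 fold change beyond 1 as well, 3219 (24.5%) passed, 1492 (11.3%) higher and 1727 (13.1%) lower. Counts of list members below use this stricter rule unless they say "at any size". The median log2 fold change over all genes was -0.03. In bulk RNA, fewer cells of a type and less RNA per cell cannot be told apart. The control libraries held 15347734 and 16796768 counts in MTΔECad and 15594416 and 15679544 in Py2T-LT, so that 1 count was worth at most 0.0696 CPM. Replicates correlated across genes at 0.9953 or above (Pearson, log2 scale) and control libraries of different lines at 0.8853 to 0.8872. The Py2T-LT control replicates differed most from each other, with a chi-square per gene of 16.25 against 5.29 in the closest pair.

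Most of the stricter calls were also present in treated cells. In 1277 of the 1492 higher genes (85.6%), all 4 MTΔECad libraries lay above all 6 Py2T-LT libraries, and in 1368 of the 1727 lower genes (79.2%) all 4 lay below. Over all genes tested, such separation was seen in 23.2% above and 24.3% below, 47.4% in all. The stricter calls were picked by their control libraries, which are among those compared. That choice itself raises their shares, so the excess over all genes is no independent check. Many genes were silent in one line. Of the higher genes 56 had no count in either Py2T-LT control, and of the lower genes 311 had no count in either MTΔECad control. For such a gene the fold is given as a lower bound against a floor of 3 counts per library. Where a line had 1 to 9 counts in all, the ratio of the higher line over the lower is given with an exact 95% interval, which covers counting error only. With silent genes at their bound, 156 called genes were higher and 254 lower by more than 5 on the log2 scale.

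**Figure D1:**
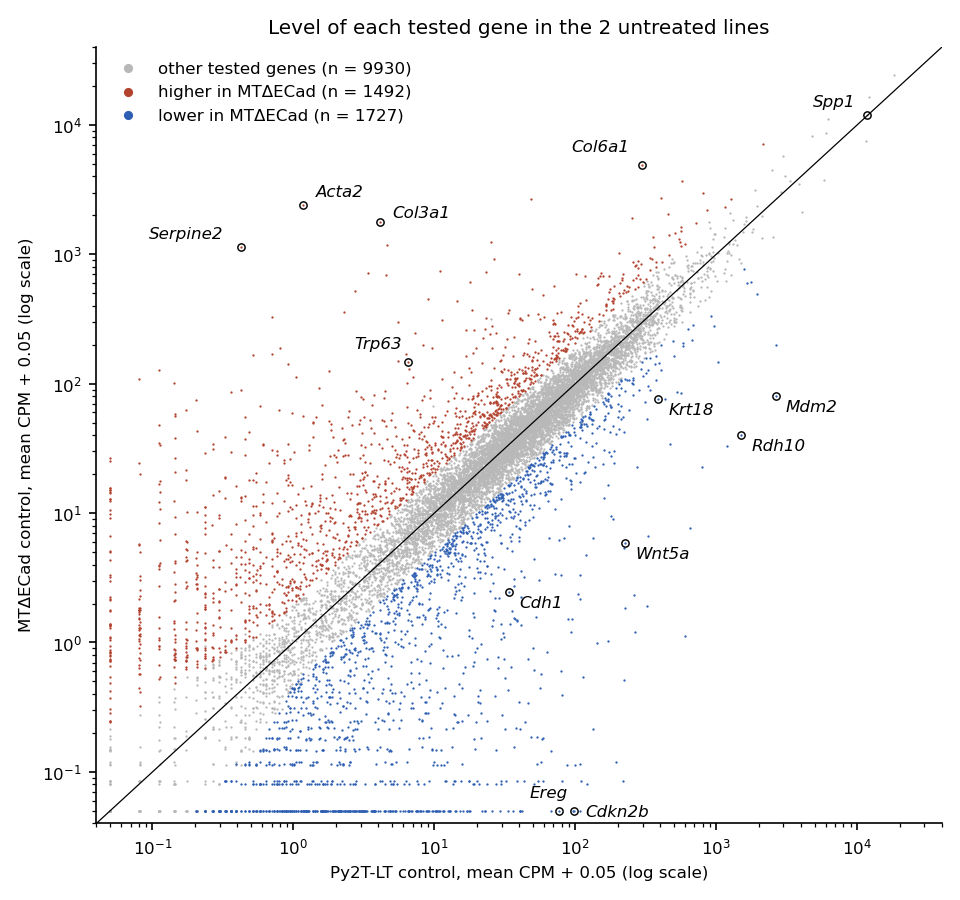
Each point is 1 of 13149 tested genes, with its mean CPM in 2 Py2T-LT control libraries on the x axis and in 2 MTΔECad control libraries on the y axis (both plus 0.05, log scales, diagonal at equal level). Red and blue points passed the adjusted p and a log2 fold change beyond 1. Acta2, Serpine2 and Col3a1 lie far above the diagonal, Mdm2, Rdh10, Wnt5a and Cdh1 far below, Spp1 on it, and genes silent in one line form the outermost rows at the left and bottom edges.

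Cdh1, the gene of E-cadherin (NCBI Gene 12550, chromosome 8, 106603350 to 106670247, GRCm38.p6), was measured at 2.58 and 2.25 CPM in MTΔECad and 35.98 and 31.7 CPM in Py2T-LT (-3.81 ± 0.19). The line in which the gene was deleted thus had the lower level but was not without reads, and counts per gene do not show which exons they came from. In treated cells Cdh1 stood at 3.02 and 4.61 CPM after rosiglitazone and at 10.96 to 18.3 CPM in the treated Py2T-LT libraries, so the lines did not overlap.

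Among genes of at least 20 CPM in the higher line, the greatest contrasts fell to genes of several kinds. In MTΔECad these included Prex2, an activator of Rac GTPases, at 126 and 129 CPM against 0.0616 and 0.0625, a ratio of 2058 (exact 95% counting interval 569 to 17000). Ptx3, a secreted pattern recognition protein, was at 44.3 and 51.4 CPM against 0.0616 and 0.0625, a ratio of 774 (exact 95% counting interval 214 to 6397). Sorcs1, a sorting receptor gene, had 26.2 and 27.2 CPM with no count in Py2T-LT, at least 144-fold higher. Tmem119, known in osteoblasts and microglia, had 24.9 and 25.5 CPM with no count in Py2T-LT, at least 135-fold higher. Those in Py2T-LT were of several kinds too, among them the chemokine gene Cxcl16 and the CDK inhibitor gene Cdkn2b. Fermt1, the epithelial kindlin that activates integrins, had 1 count in MTΔECad and 207 and 231 CPM in Py2T-LT, a ratio of 6640 (exact 95% counting interval 1191 to 262300). Shroom2, a regulator of the epithelial actin network, had none against 61 and 73.6 CPM, at least 339-fold lower. Eda, the skin appendage ligand ectodysplasin, had none against 38.9 and 41.5 CPM, at least 203-fold lower. The serine protease genes Tmprss11e and Klk8 were silent in MTΔECad too, at least 212-fold and 205-fold lower. In all 9 of the genes given with values here, the 4 MTΔECad libraries and the 6 Py2T-LT libraries did not overlap. Over all tested genes this held for 47.4%. The 9 were picked for their folds in the control libraries, which are among those compared, so their separation is no independent check.

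Epithelial genes were more often lower in MTΔECad. Of 23 tested junction and keratin genes, 10 were lower and 2 higher (at any size 14 and 4), with a median of -0.78. Krt18, a keratin of simple epithelia, stood at 74.6 and 78.9 CPM against 403 and 375 (-2.34 ± 0.09). Its usual partner Krt8 was not called, at 195 and 204 CPM against 228 and 209.95 (-0.13 ± 0.08). Among desmosome genes, Ppl was at 88.2 and 85.01 CPM against 536 and 515 (-2.60 ± 0.09). The plaque gene Dsp stood at 2.23 and 1.06 CPM against 17.4 and 20.1 (-3.53 ± 0.21, and -4.13 to -3.07 without 1 library in turn). Pkp1 was nearly silent in MTΔECad, at 0.139 and 0.2504 CPM against 14.97 and 13.7, a ratio of 72.6 (exact 95% counting interval 33.1 to 199). The tight junction gene Cldn4 had 2 counts in MTΔECad and 9.67 and 9.94 CPM in Py2T-LT, a ratio of 149 (exact 95% counting interval 40.8 to 1233). In each of these, both MTΔECad controls lay below both Py2T-LT controls, by little for Krt8. A few epithelial genes stood the other way. Krt7, another keratin of simple epithelia, was at 581 and 557 CPM against 71.8 and 70.2 (3.00 ± 0.09), and the desmosomal cadherin Dsc2 at 21.6 and 20.8 CPM against 6.28 and 5.12 (1.89 ± 0.15).

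Promoters of these genes were searched for CACCTG, the E-box that Snail and Zeb proteins are known to bind, on both strands. Windows ran from 250 bases before to 50 after the start, from RefSeq on GRCm38.p6, and 13 of the 23 genes had one. The E-box was present in 8 of the 13 (61.5%), against 20.4% of 10358 tested genes with a window and 20.2% of all 32851 windows. The 8 were Cldn3, Cldn4, Dsp, Epcam, F11r, Krt18, Krt8 and Krt7, of which Krt8 was not called and Krt7 was higher in MTΔECad. The windows of Cldn4 (chr5:134946885-134947184, minus strand), Dsp (chr13:38151044-38151343, plus strand) and Krt7 (chr15:101412153-101412452, plus strand) are shown because they hold the same letters while their genes differ in direction, with each E-box in capitals.
Cldn4: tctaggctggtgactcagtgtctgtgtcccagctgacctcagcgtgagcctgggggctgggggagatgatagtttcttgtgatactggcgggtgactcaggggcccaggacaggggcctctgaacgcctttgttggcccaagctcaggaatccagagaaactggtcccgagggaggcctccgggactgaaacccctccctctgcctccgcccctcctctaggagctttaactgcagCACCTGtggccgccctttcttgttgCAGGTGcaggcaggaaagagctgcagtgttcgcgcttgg
Dsp: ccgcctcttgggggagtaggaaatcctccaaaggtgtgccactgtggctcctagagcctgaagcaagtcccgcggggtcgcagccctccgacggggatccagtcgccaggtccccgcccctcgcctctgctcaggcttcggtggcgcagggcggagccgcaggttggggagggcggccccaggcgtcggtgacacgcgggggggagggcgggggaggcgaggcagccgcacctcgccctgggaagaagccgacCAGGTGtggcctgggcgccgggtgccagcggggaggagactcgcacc
Krt7: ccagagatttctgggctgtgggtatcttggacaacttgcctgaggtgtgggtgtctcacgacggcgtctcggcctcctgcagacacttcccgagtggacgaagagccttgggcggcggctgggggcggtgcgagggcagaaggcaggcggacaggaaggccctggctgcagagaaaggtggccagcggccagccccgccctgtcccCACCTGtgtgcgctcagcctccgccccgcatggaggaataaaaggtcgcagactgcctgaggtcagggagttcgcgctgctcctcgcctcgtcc
In Cldn4 the matches begin at -14 and 11 from the start, in Dsp at 3 and in Krt7 at -44. A match describes the letters and not whether a factor binds there.

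Trp63 stood apart among regulators of epithelial identity. This gene of p63, a transcription factor of basal epithelia (NCBI Gene 22061, chromosome 16, 25683763 to 25892088), was at 154 and 141 CPM in MTΔECad and 7.15 and 5.81 CPM in Py2T-LT (4.51 ± 0.13). It was at 102 and 99.9 CPM after rosiglitazone and 6.86 to 9.31 CPM in the treated Py2T-LT libraries, again without overlap. Of 10 tested epithelial regulators, 3 were higher and 1 lower, with a median of 0.46 (0.32 with silent genes at their bound). Klf5, a factor of proliferating epithelia, was the lower one, at 4.73 and 4.19 CPM against 15.6 and 14.8 (-1.77 ± 0.17). The membrane protease inhibitor Spint2 was at 20.2 and 19.2 CPM against 8.01 and 8.37 (1.26 ± 0.13). Grhl2 and Esrp1, epithelial regulators of transcription and splicing, had at most 0.25 CPM in any control library and were not tested.

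The EMT transcription factors did not move as a group, with 2 of 16 higher, 2 lower and a median of 0.21. Snai1, the Snail repressor of Cdh1, was at 17.4 and 15.6 CPM in MTΔECad and 0.924 and 0.937 CPM in Py2T-LT (4.14 ± 0.21). Snai2, the Slug repressor, was called in the other direction, at 6.33 and 6.89 CPM against 9.92 and 13.7 (-0.83 ± 0.17). The lines thus differed in which Snail family gene was higher. Twist1 was at 49.3 and 46.3 CPM against 20.2 and 19.2 (1.28 ± 0.10). Zeb1 was at 192 and 182 CPM against 137 and 135 (0.46 ± 0.08), and Zeb2 was not called, at 180.4 and 169 CPM against 167 and 169 (0.06 ± 0.08). Foxc2, a forkhead factor of mesoderm, had 2 counts in MTΔECad and 17.1 and 14.1 CPM in Py2T-LT, a ratio of 237 (exact 95% counting interval 65.2 to 1960). Both lines expressed Zeb1, Zeb2 and Twist1, while Snai1 and Foxc2 were each under 1 CPM in one of them.

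Of 14 mesenchymal markers, 7 were higher in MTΔECad and 1 lower, with a median of 1. Ddr2, a collagen receptor kinase, stood at 438 and 431 CPM against 14.1 and 14.6 (4.92 ± 0.09). N-cadherin (Cdh2) was at 149.99 and 156 CPM against 50.95 and 48.3 (1.63 ± 0.08) and vimentin (Vim) at 5853 and 5548 CPM against 3199 and 2756 (0.94 ± 0.08). Receptors of PDGF, a growth factor of mesenchymal cells, were also higher. Pdgfra was at 1047 and 1008 CPM against 221 and 190.5 (2.32 ± 0.08) and Pdgfrb at 939 and 845 CPM against 274 and 281 (1.68 ± 0.08). Nt5e, the ectonucleotidase CD73, was the lower one, at 27.4 and 26.7 CPM against 132 and 133 (-2.29 ± 0.09). Fibronectin (Fn1) was abundant in both lines and not called, at 9767 and 7457 CPM against 4406 and 7696 (0.51 ± 0.27). Its Py2T-LT replicates lay far apart, and without replicate 2 of Py2T-LT its log2 fold change was 0.97, which was called (adjusted p = 3.6e-07).

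**Figure D2:**
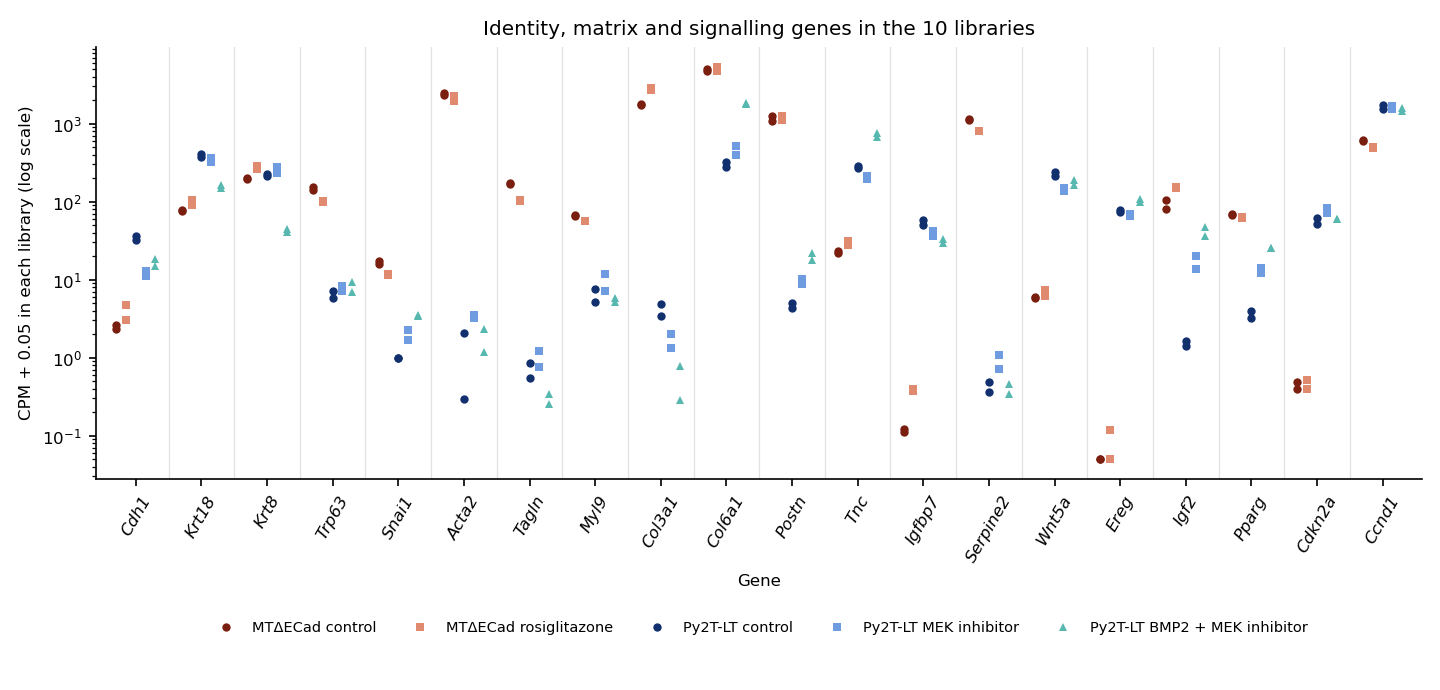
Level of 20 genes (x axis) in each of the 10 libraries (y axis, CPM plus 0.05, log scale), with 2 points for each of 5 groups and circles for the untreated controls. The MTΔECad points lie apart from all Py2T-LT points for most genes, treated or not, while those of Krt8 overlap.

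Genes of the mammary lineage were lower in 9 of 18 cases and higher in 1, with a median of -0.94 (-0.51 with silent genes at their bound). Runx1, a Runt factor of mammary cells, was at 83.9 and 79.5 CPM against 203 and 309.7 (-1.65 ± 0.17). Stat5a, which carries the prolactin signal, was the higher one, at 273 and 254 CPM against 112 and 111 (1.24 ± 0.08). Both lines had reads of the mouse genes of the oestrogen receptor and HER2, and neither gene differed by a called amount. How reads of a Neu transgene would be counted is not given, so Erbb2 does not show its level. Esr1 was at 62.3 and 59.03 CPM against 54.7 and 61.2 (0.07 ± 0.10) and Erbb2 at 52.3 and 46.4 CPM against 45.1 and 45.9 (0.12 ± 0.10).

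The Hox genes, which record position along the body axis, were called only in the HoxA cluster on chromosome 6. Of 10 tested, 6 were higher in MTΔECad and none was lower, with a median of 1.91. Hoxa7 stood at 16.4 and 11.96 CPM in MTΔECad with no count in Py2T-LT, at least 76.2-fold higher. Hoxa6 was likewise silent in Py2T-LT and at 2.85 and 3.07 CPM in MTΔECad, at least 15.9-fold higher. Hoxa5 was at 11.5 and 12.2 CPM against 0.554 and 0.7498 (4.17 ± 0.27). Hoxa4 was at 2.297 and 3.32 CPM against 0.986 and 0.812 (1.64 ± 0.32), Hoxa3 at 5.36 and 4.26 CPM against 1.05 and 1.06 (2.18 ± 0.32) and Hoxa2 at 4.73 and 2.94 CPM against 0.123 and 0, a ratio of 61.1 (exact 95% counting interval 16.5 to 510.4). The tested HoxB genes Hoxb2 (0.16 ± 0.19), Hoxb3 (0.08 ± 0.17) and Hoxb4 (-0.28 ± 0.17), named after their values were seen, were not called.

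Other developmental transcription factors were split, with 20 of 67 higher and 22 lower and a median of -0.31 (0 with silent genes at their bound). In MTΔECad, Foxf1, a forkhead factor of visceral mesenchyme, was at 22.7 and 25.9 CPM against 0.0616 and 0, a ratio of 786 (exact 95% counting interval 141 to 31090). Gata4, a factor of heart and gut mesoderm, was at 33.97 and 33.2 CPM against 0.616 and 0.4999 (5.89 ± 0.24). The homeobox gene Meis3 was at 19.5 and 16.5 CPM against 0.616 and 0.312 (5.25 ± 0.26). In Py2T-LT, Lin28b, an RNA-binding repressor of let-7 that the list includes, was at 6.65 and 8.56 CPM with no count in MTΔECad, at least 38.4-fold lower. Eya1, Foxl2, Pax9, Dach1 and Foxd1 had no count in MTΔECad either, with bounds of 33.03-, 24.1-, 22.1-, 18.02- and 13.3-fold.

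Fibrillar collagens, which form the load-bearing fibres of connective tissue, were higher in 5 of 7 cases and lower in 1, with a median of 1.3. Together their genes reached 2265 and 2190 CPM in MTΔECad and 185.2 and 202 CPM in Py2T-LT. In MTΔECad most of this was Col3a1, a fibrillar collagen of soft tissue (NCBI Gene 12825, chromosome 1, 45311538 to 45349706), at 1791 and 1753 CPM against 3.39 and 4.75 (8.77 ± 0.15). After rosiglitazone it stood at 2875 and 2707 CPM, against 0.233 to 1.94 CPM in the treated Py2T-LT libraries. Col1a2, a chain of collagen I, was at 63.96 and 71.9 CPM against 1.36 and 1.75 (5.45 ± 0.15). Its partner chain Col1a1 was scarce in both lines, at 4.11 and 3.005 CPM against 1.23 and 1.62 (1.30 ± 0.29). Col5a1, which sets fibril width, was expressed in both lines, at 396 and 352 CPM against 171 and 184 (1.07 ± 0.08). The lower gene was Col11a2 of cartilage, at 0.766 and 2.25 CPM against 4.99 and 5.37 (-1.74 ± 0.31, and -2.75 to -1.20 without 1 library in turn).

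The chains of collagen VI, which forms beaded filaments around cells, were higher in MTΔECad as well. Col6a1 stood at 5060.2 and 4756 CPM against 318 and 277 (4.04 ± 0.11). Col6a2 was at 1303 and 1172 CPM against 22.1 and 27.99 (5.63 ± 0.12) and Col6a3 at 740.1 and 649.6 CPM against 4.13 and 4.81 (7.28 ± 0.26). Of the 18 collagens outside the fibrillar and basement membrane types, 7 were higher and 3 lower, with a median of 0.72. One of the lower ones was Col14a1, a fibril-associated collagen, at 1.25 and 1.31 CPM against 25.9 and 25.5 (-4.31 ± 0.16).

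Basement membrane genes differed by chain, with 7 of 14 higher, 4 lower and a median of 1.12. The ubiquitous collagen IV chains were higher in MTΔECad. Col4a1 was at 2016 and 1779 CPM against 255 and 251 (2.91 ± 0.10) and Col4a2 at 742 and 628 CPM against 165 and 183 (1.98 ± 0.12). Of the tissue-restricted chains, Col4a5 was higher too, at 1445 and 1463 CPM against 533 and 495 (1.5 ± 0.08), as was Col4a6 at 2.92 and 2.82 CPM against 0.3697 and 0.562 (2.60 ± 0.36). Col4a3 and Col4a4 stood the other way, with no count in the MTΔECad controls. Col4a3 was at 6.65 and 8.12 CPM in Py2T-LT, at least 37.3-fold lower in MTΔECad, and Col4a4 at 4.07 and 5.56 CPM, at least 24.3-fold lower. Nid1, the nidogen that links laminin to collagen IV, was lower in MTΔECad, at 3.06 and 2.32 CPM against 35.5 and 37.5 (-3.77 ± 0.14). Perlecan (Hspg2) was not called, at 258 and 159.9 CPM against 101 and 416 (-0.31 ± 0.65). Its Py2T-LT replicates lay on either side of MTΔECad. The log2 fold change was 1.05 without replicate 2 and -0.99 without replicate 1 of Py2T-LT, so no direction is given. Among 9 laminin genes, 3 were higher and 1 lower (median 0.93), with Lama4 at 115 and 105 CPM against 39.6 and 38.1 (1.5 ± 0.10).

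Matrix glycoproteins were called in both directions, 15 of 46 higher and 16 lower, with a median of -0.09. Postn, the gene of periostin, was at 1094 and 1252 CPM against 4.25 and 4.94 (7.99 ± 0.14). Fbn1, the fibrillin of microfibrils, was at 753 and 674 CPM against 2.77 and 3.94 (7.73 ± 0.12), and the abundant thrombospondin gene Thbs1 at 7461 and 6776 CPM against 2172 and 2131 (1.73 ± 0.08). Py2T-LT had a different set. Tenascin C (Tnc), an adhesion-modulating protein of wounds and tumours, was at 21.9 and 23.2 CPM against 266 and 283 (-3.60 ± 0.10). The fibulin gene Fbln1 was at 0.766 and 0.626 CPM against 24.3 and 22.9 (-5.08 ± 0.22). Of the IGF-binding proteins, Igfbp4, named after its value was seen, was called higher in MTΔECad at 3246 and 3012 CPM against 1878 and 1873 (0.74 ± 0.08), and Igfbp6 was higher too, at low levels in both lines. Others were lower. Igfbp7 had 2 counts in MTΔECad and 49.8 and 57.5 CPM in Py2T-LT, a ratio of 814 (exact 95% counting interval 225 to 6729), and Igfbp3 had 1 count against 29.9 and 29.6 CPM, a ratio of 904 (exact 95% counting interval 162 to 35730). Spp1, the gene of osteopontin and abundant in both lines, was not called, at 11349 and 12330.5 CPM against 12295 and 11248 (0.01 ± 0.09).

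Proteoglycan and hyaluronan genes were higher in 10 of 23 cases and lower in 5, with a median of 0.36. The lower ones included Has3 and Hyal1, which make and break down hyaluronan. The glypican gene Gpc4 was at 69.4 and 65.1 CPM against 0.493 and 0.562 (6.97 ± 0.19). Among the small collagen-binding proteoglycans, biglycan (Bgn) was at 17.7 and 14.8 CPM against 0.308 and 0.375 (5.54 ± 0.26) and Prelp at 100.02 and 84.9 CPM against 22.2 and 24.4 (1.99 ± 0.11), and Ogn, Fmod, Lum and Aspn were higher too, Lum with a call that was lost without replicate 2 of MTΔECad (adjusted p = 0.1). Decorin (Dcn) stood the other way, at 10.1 and 14.6 CPM against 43.3 and 45.6 (-1.84 ± 0.14). Versican (Vcan), a large hyaluronan-binding proteoglycan, was at 32.9 and 35.4 CPM against 69.2 and 85.4 (-1.18 ± 0.18). Genes that process or crosslink collagen were higher in 11 of 25 cases and lower in 5 (median 0.51). The lysyl oxidase Loxl1 was at 349 and 294 CPM against 22.5 and 23.99 (3.79 ± 0.10). Its relative Lox was low in both lines, at 4.25 and 5.01 CPM against 2.03 and 3.31 (0.80 ± 0.32, and 0.49 to 1.19 without 1 library in turn). The call of Lox was lost without either MTΔECad library (adjusted p = 0.068 and 0.2) or replicate 1 of Py2T-LT (adjusted p = 0.25). The collagen chaperone gene Serpinh1 was at 1401 and 1331 CPM against 379 and 333 (1.94 ± 0.09), and the procollagen peptidase Adamts2 at 135 and 127 CPM against 6.04 and 6.998 (4.32 ± 0.12).

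Matrix proteases were higher in 13 of 36 cases and lower in 3, with a median of 0.53. The membrane metalloprotease gene Mmp14 was at 724 and 673 CPM against 96.7 and 106 (2.79 ± 0.08). Mmp2, a collagenase that Mmp14 activates, was at 26.6 and 23.5 CPM against 5.24 and 4.06 (2.42 ± 0.16). The aggrecanase Adamts5 stood at 66.2 and 59.7 CPM against 0.616 and 0.875 (6.39 ± 0.17). A protease with the other direction was the lysosomal Ctsb, at 617 and 612 CPM against 1853 and 1705 (-1.53 ± 0.08). Protease inhibitors were balanced in number, 6 of 18 higher and 5 lower (median 0.01). Serpine2, the protease nexin that inhibits thrombin and plasminogen activators (NCBI Gene 20720, chromosome 1, 79794317 to 79858665), was at 1115 and 1161 CPM in MTΔECad and 0.308 and 0.437 CPM in Py2T-LT (11.55 ± 0.15). It was also separated in treated cells, at 795 and 813 CPM after rosiglitazone and 0.291 to 1.03 CPM in the treated Py2T-LT libraries. Of the tissue inhibitors of metalloproteases, Timp2 was at 649 and 604 CPM against 1162 and 1199 (-0.91 ± 0.07), and Timp1 (-0.13 ± 0.08) and Timp3 (0.15 ± 0.07) were not called.

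Cell adhesion receptors were lower more often than higher. Of 18 integrin genes, 5 were higher and 6 lower (median 0.19). The laminin-binding pair that forms hemidesmosomes was lower in MTΔECad. Itga6 was at 127 and 127 CPM against 421 and 392 (-1.68 ± 0.08) and Itgb4 at 2.16 and 2.07 CPM against 111 and 104 (-5.66 ± 0.13). Other α chains went the opposite way, Itga7 at 76.4 and 73.4 CPM against 7.45 and 8.81 (3.20 ± 0.14) and Itga8 at 573 and 583 CPM against 148 and 136 (2.02 ± 0.08). Among 29 cadherins and other adhesion molecules, 12 were lower and 4 higher, with a median of -0.92 (-0.67 with silent genes at their bound). Alcam stood at 6.82 and 6.45 CPM against 321 and 338 (-5.63 ± 0.10). Cdh6 had 1 count in MTΔECad and 39.1 and 37.4 CPM in Py2T-LT, a ratio of 1161 (exact 95% counting interval 208 to 45880). Jam3, a junctional adhesion molecule, had none against 15.3 and 14.8 CPM, at least 76.02-fold lower. T-cadherin (Cdh13) and Vcam1 were among the 4 higher. Cdh13 was at 317 and 300.03 CPM against 43.7 and 39.7 (2.89 ± 0.09) and Vcam1 at 32.1 and 34.6 CPM against 1.36 and 1.12 (4.74 ± 0.17).

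Contractile genes, listed together with known targets of the serum response factor (SRF), were higher in 14 of 28 cases and lower in 1. Their median was 1.09. Actin dynamics release the MRTF coactivators, which act with SRF on CArG boxes in promoters of smooth muscle and cytoskeletal genes. Smooth muscle actin (Acta2, NCBI Gene 11475, chromosome 19, 34240336 to 34255585) was at 2484 and 2294 CPM in MTΔECad and 0.246 and 2 CPM in Py2T-LT. After rosiglitazone it was at 2270.1 and 1953 CPM, against 1.14 to 3.49 CPM in the treated Py2T-LT libraries. Its log2 fold change of 11.05 ± 0.41 rests on few Py2T-LT reads and was 13.20 without replicate 2 and 10.22 without replicate 1 of Py2T-LT. Acta2 was thus among the abundant mRNAs of MTΔECad and low in Py2T-LT. Lmod1, a leiomodin that nucleates actin filaments, was at 322 and 334 CPM against 0.739 and 0.562 (8.96 ± 0.14). Tagln, the actin-binding transgelin, was at 174 and 167 CPM against 0.493 and 0.812 (8.01 ± 0.16). The myosin light chain Myl9 was at 67.1 and 64.6 CPM against 5.11 and 7.498 (3.38 ± 0.18) and its kinase Mylk at 14.9 and 13.5 CPM against 0.554 and 0.875 (4.30 ± 0.25). Genes of focal adhesions and of SRF itself differed less. Vinculin (Vcl), named with Srf after their values were seen, was at 2773 and 2639 CPM against 409 and 398 (2.75 ± 0.08) and Srf at 103 and 96.1 CPM against 42.8 and 34.9 (1.36 ± 0.11). Not every smooth muscle gene was on in MTΔECad: Cnn1, a calponin, had at most 0.246 CPM in a control library, and Csrp2, a muscle LIM gene, was at 3.34 and 2.003 CPM against 16.8 and 15.7 (-2.61 ± 0.20).

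The CArG box was sought by name on both strands in the promoter windows of the 24 contractile and SRF target genes that had one. Because the list was made to include SRF targets, a share above that of all genes is no independent result. A standard form and a relaxed form, which allows 1 base other than A or T in the middle run and includes the standard form, were used. The standard form was present in 5 of 24 (20.8%), against 1.6% of tested genes with a window. The relaxed form was present in 7 of 24 (29.2%), against 10.5%. The 7 were Acta2, Cnn2, Ldb3, Mrtfa, Myl9, Srf and Vcl. Of these, Mrtfa was called lower in MTΔECad, at any size only, and the others were higher. The windows of Acta2 (chr19:34255324-34255623, minus strand) and Myl9 (chr2:156775214-156775513, plus strand) are shown because both genes were higher in MTΔECad and each holds 2 matches of the relaxed form, in capitals.
Acta2: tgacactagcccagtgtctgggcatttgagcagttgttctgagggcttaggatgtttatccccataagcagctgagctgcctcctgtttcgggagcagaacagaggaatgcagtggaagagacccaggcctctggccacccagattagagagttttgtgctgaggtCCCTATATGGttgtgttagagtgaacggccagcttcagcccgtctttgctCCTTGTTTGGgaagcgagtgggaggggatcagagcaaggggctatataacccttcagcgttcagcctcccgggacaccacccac
Myl9: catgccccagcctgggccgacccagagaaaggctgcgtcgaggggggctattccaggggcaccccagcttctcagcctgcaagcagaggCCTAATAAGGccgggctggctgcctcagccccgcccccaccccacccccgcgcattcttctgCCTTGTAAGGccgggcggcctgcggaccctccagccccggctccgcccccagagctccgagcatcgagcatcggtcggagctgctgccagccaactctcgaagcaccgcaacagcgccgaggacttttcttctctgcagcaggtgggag
The matches begin at -84 and -34 from the start in Acta2 and at -161 and -99 in Myl9. The windows of Lmod1 and Mylk hold no match.

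**Figure D3:**
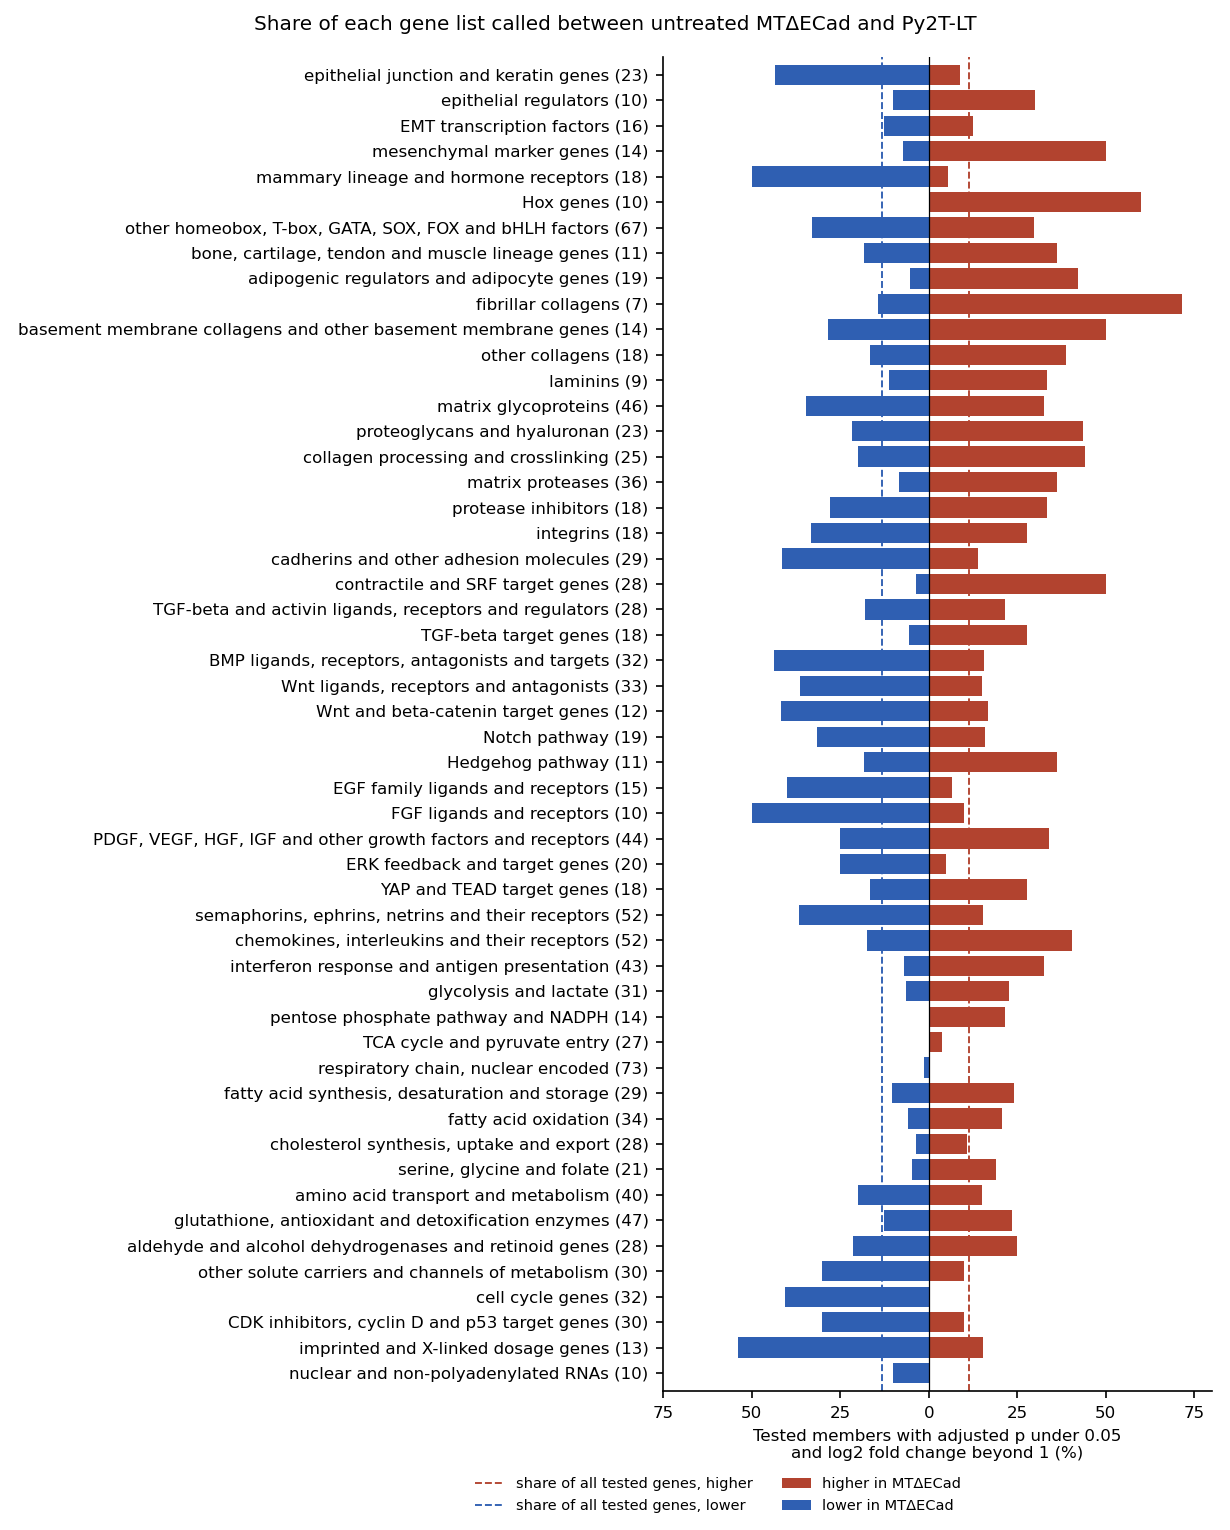
Share of the tested members of each gene list (y axis, number tested in parentheses) with an adjusted p under 0.05 and a log2 fold change beyond 1, in percent, higher in MTΔECad to the right (red) and lower to the left (blue). Dashed lines mark the shares over all tested genes, 11.3% higher and 13.1% lower, which the contractile list passes to the right with 14 of 28 and the cell cycle list to the left with 13 of 32.

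TGF-β and activin ligands bind paired serine kinase receptors that signal through SMAD2 and SMAD3, and BMPs signal through SMAD1, SMAD5 and SMAD9. Of 28 tested ligands, receptors and regulators of the TGF-β branch, 6 were higher and 5 lower, with a median of 0.14. The ligand gene Tgfb2 was at 53.9 and 50.9 CPM against 2.403 and 3.44 (4.16 ± 0.15). The activin subunit genes were exchanged, with Inhbb at 118 and 109 CPM against 15.2 and 15.7 (2.88 ± 0.10) and Inhba at 4.73 and 4.32 CPM against 27.6 and 23.6 (-2.50 ± 0.14). Fstl1, a secreted follistatin-like protein, was at 364 and 358 CPM against 1.85 and 2.62 (7.33 ± 0.13). Of the signal carriers, the receptor gene Tgfbr2 was at 567 and 554 CPM against 332 and 339 (0.74 ± 0.07) and Smad3 at 171 and 155 CPM against 487 and 520.1 (-1.63 ± 0.08). Known TGF-β targets did not lean one way as a list, with 5 of 18 higher, 1 lower and a median of 0.05. Snai1, described above, was among the higher ones. Tgfbi, the lower one, was at 29.7 and 31.5 CPM against 176 and 146 (-2.39 ± 0.11), and Ccn2, a matricellular target, was called lower at 337 and 379 CPM against 649.8 and 647 (-0.86 ± 0.08).

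BMP ligands, receptors, antagonists and targets were lower in 14 of 32 cases and higher in 5. Their median was -0.44 (-0.27 with silent genes at their bound). The lower genes included the antagonists Nog, Chrd and Chrdl1 and the procollagen peptidase Bmp1, while the antagonist Grem1 was among the higher. The count therefore gives no direction of BMP signalling. Several of the ligand genes were silent in MTΔECad. Bmp2 was at 2.28 and 3.499 CPM in Py2T-LT, at least 14.6-fold lower in MTΔECad, and Bmp6 at 2.28 and 2.44 CPM, at least 11.9-fold lower. Bmp4, by contrast, was at 158 and 168 CPM against 49.7 and 44.4 (1.79 ± 0.09). Components that receive or damp the signal also differed. The receptor gene Bmpr1a was at 644 and 678 CPM against 261 and 279.8 (1.29 ± 0.08). Smad9 had 1 count in MTΔECad against 4.74 and 4.87 CPM, a ratio of 146 (exact 95% counting interval 25.8 to 5800). The pseudoreceptor gene Bambi had 3 counts against 3.94 and 4.25 CPM, a ratio of 41.4 (exact 95% counting interval 13.9 to 203). Id1, a direct BMP target, was not called, at 35.4 and 48.2 CPM against 43.7 and 36.8 (0.06 ± 0.13), with overlapping libraries.

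Wnt ligands, receptors and antagonists were lower in 12 of 33 cases and higher in 5 (at any size 16 and 11). Their median was -0.18 (-0.13 with silent genes at their bound). Wnt5a, a ligand of the non-canonical branch (NCBI Gene 22418, chromosome 14, 28504543 to 28527448), was at 5.92 and 5.82 CPM in MTΔECad and 212 and 239 CPM in Py2T-LT (-5.26 ± 0.12). It stood at 7.28 and 6.05 CPM after rosiglitazone and 138 to 187 CPM in the treated Py2T-LT libraries. R-spondins amplify Wnt signals, and a ligand and a receptor gene of this system were close to silent in MTΔECad. The receptor gene Lgr6 was at 0.348 and 0.689 CPM against 56.2 and 58.4 (-6.74 ± 0.21, and -7.33 to -6.36 without 1 library in turn). The ligand gene Rspo3 had 1 count against 12.3 and 11.4 CPM, a ratio of 359.6 (exact 95% counting interval 64.2 to 14240). Sfrp2, a secreted Wnt antagonist, was the reverse, at 76 and 73.9 CPM against 0.185 and 0.125, a ratio of 483 (exact 95% counting interval 207 to 1488). Another antagonist gene, Dkk2, was called lower in MTΔECad, and Fzd6, Lrp5, Ryk and Porcn were called higher. Of 12 β-catenin targets, 5 were lower and 2 higher, with a median of -0.75. Cyclin D1 (Ccnd1) stood at 615 and 595 CPM against 1747 and 1536 (-1.44 ± 0.08) and the transcription factor gene Lef1 at 1.11 and 1.75 CPM against 5.18 and 7.62 (-2.14 ± 0.26). Axin2, a feedback target, was at 6.26 and 5.13 CPM against 8.19 and 9.37 (-0.63 ± 0.18), and its call was lost without replicate 2 of MTΔECad (-0.49, adjusted p = 0.073).

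In the Notch pathway 3 of 19 genes were higher and 6 lower (median -0.5). The receptor genes were divided, with Notch3 at 19.98 and 14.8 CPM against 0.739 and 0.437 (4.86 ± 0.27) and Notch1 at 52.8 and 48.1 CPM against 87.2 and 129 (-1.10 ± 0.15). The ligand gene Jag1 was at 11.1 and 10.6 CPM against 26.6 and 27.9 (-1.33 ± 0.11). In the Hedgehog pathway 4 of 11 genes were higher and 2 lower (median 0.39). The coreceptor genes Gas1 and Boc were higher, Gas1 at 707 and 697 CPM against 38.9 and 40.3 (4.15 ± 0.08) and Boc at 35.01 and 31.9 CPM against 2.65 and 3.31 (3.49 ± 0.15). Hhip, which sequesters Hedgehog ligands, was at 2.09 and 1.63 CPM against 301 and 349 (-7.45 ± 0.15). Gli1, the usual readout of the pathway, had at most 0.431 CPM in any control library and was not called.

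EGF family genes were lower in 6 of 15 cases and higher in 1, with a median of -0.61. The ligand gene Ereg (NCBI Gene 13874, chromosome 5, 91074617 to 91093649) had no count in MTΔECad and 74.3 and 78.7 CPM in Py2T-LT, at least 386-fold lower. Tgfa, another ligand of the EGF receptor, was at 0.209 and 0.125 CPM against 36.5 and 38.99, a ratio of 229 (exact 95% counting interval 97.9 to 707). The receptor gene Egfr was at 56.4 and 54.8 CPM against 108 and 119 (-1.03 ± 0.09). Ligand and receptor were thus lower in the same line, but not every ligand was. Hbegf was not called, at 68.6 and 88.95 CPM against 97.9 and 88.8 (-0.24 ± 0.11), though it was without replicate 2 of MTΔECad (-0.44, adjusted p = 0.0031). FGF genes were lower in 5 of 10 cases and higher in 1 (median -1.32). Fgf2 was at 1.601 and 2.003 CPM against 8.995 and 9.44 (-2.34 ± 0.20), and Fgf5 had no count in MTΔECad against 4.62 and 4.19 CPM, at least 22.2-fold lower. These receptors act through the kinase ERK. Genes known to answer ERK were lower in 5 of 20 cases and higher in 1, with a median of -0.36. At any size 10 were lower and 5 higher, with Dusp4, Dusp5, Egr1 and Ier3 among the higher. The transcription factor gene Etv5 was at 21.7 and 21.4 CPM against 50.2 and 49.1 (-1.20 ± 0.10) and the feedback inhibitor Spry2 at 10.4 and 11.02 CPM against 30 and 29.9 (-1.48 ± 0.12). Junb, the only one higher by the stricter rule, was at 244 and 259 CPM against 126 and 107 (1.12 ± 0.20).

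Growth factors of other families were called in both directions, 15 of 44 higher and 11 lower, with a median of 0.2. Igf2, a fetal growth factor and imprinted gene, stood at 105 and 81.3 CPM against 1.36 and 1.56 (5.99 ± 0.29). The ligand gene Pdgfb was at 86.7 and 81.6 CPM against 14.9 and 13.6 (2.56 ± 0.12), and Pdgfa at 59.9 and 54.96 CPM against 23.7 and 21.4 (1.35 ± 0.11). The ligand genes Pdgfc and Pdgfd stood the other way, with Pdgfc, named after its value was seen, at 66.3 and 67.5 CPM against 159 and 172 (-1.31 ± 0.08). The VEGF receptor gene Flt1 was at 14.8 and 13.6 CPM against 2.09 and 2.94 (2.49 ± 0.21). The GDNF family was lower. Its coreceptor gene Gfra1 was at 0.696 and 1.25 CPM against 164 and 178 (-7.43 ± 0.15). The receptor kinase gene Ret was at 0.278 and 0.2504 CPM against 6.84 and 7.19, a ratio of 26.6 (exact 95% counting interval 13.3 to 62.4), and the ligand gene Artn at 0.348 and 0.2504 CPM against 9.43 and 7.998, a ratio of 29.4 (exact 95% counting interval 15.3 to 64.9). The HGF receptor gene Met was at 95.1 and 98.1 CPM against 334 and 323 (-1.77 ± 0.07). Vegfa (-0.03 ± 0.09) and the receptor kinase Axl (-0.14 ± 0.07) were not called. Targets of YAP and TEAD were higher in 5 of 18 cases and lower in 3 (median -0.05), with Amotl2 at 456 and 468 CPM against 171 and 199 (1.32 ± 0.09) and Nuak2 at 0.626 and 0.0626 CPM against 76.3 and 85.4 (-7.90 ± 0.25, and -10.16 to -6.99 without 1 library in turn).

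Guidance molecules, which steer migrating cells, were lower in 19 of 52 cases and higher in 8, with a median of -0.6 (-0.54 with silent genes at their bound). The semaphorin gene Sema3c was at 28.5 and 26.4 CPM against 181 and 179 (-2.71 ± 0.09). The plexin gene Plxna4, a semaphorin receptor, had 1 count in MTΔECad against 95.7 and 125 CPM, a ratio of 3344 (exact 95% counting interval 599.7 to 132100). The ephrin receptor gene Epha2 was at 50.4 and 54.8 CPM against 166 and 154 (-1.6 ± 0.09). A higher one was the netrin receptor gene Unc5b, at 306 and 275 CPM against 67.9 and 70.2 (2.07 ± 0.09).

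Chemokine, interleukin and receptor genes were higher in 21 of 52 cases and lower in 9, with a median of 0.43. Ccl9, a chemokine of myeloid cells, was at 355 and 385 CPM against 18.2 and 18.6 (4.33 ± 0.10). Cxcl5, a neutrophil attractant, was at 82.1 and 95.8 CPM against 9.55 and 8.998 (3.26 ± 0.13), and the interleukin-1 receptor gene Il1r1 at 256 and 263 CPM against 20.02 and 18.4 (3.75 ± 0.10). A ligand and its receptor could differ in direction. The alarmin gene Il33 was at 329.6 and 372 CPM against 84.2 and 63.8 (2.24 ± 0.23), while its receptor gene Il1rl1 was at 1.601 and 1.88 CPM against 29.8 and 23.4 (-3.92 ± 0.19). Cxcl16, a membrane-bound chemokine, had no count in MTΔECad and 41.8 and 38.7 CPM in Py2T-LT, at least 203-fold lower. Interferon response and antigen presentation genes were higher in 14 of 43 cases and lower in 3, with a median of 0.59. The class I gene H2-K1 stood at 161 and 162 CPM against 49.2 and 50.7 (1.69 ± 0.08). The immunoproteasome gene Psmb8 was at 7.795 and 8.58 CPM against 0.924 and 1.25 (2.91 ± 0.30), and Ifit2, induced by interferon, at 129.7 and 133 CPM against 16.7 and 18.3 (2.91 ± 0.10). How reads were divided among near-identical class I and Ifit family members is not given, so these values are uncertain. Trim25, a ubiquitin ligase of RNA sensing, had 1 count in MTΔECad against 76.03 and 84.3 CPM, a ratio of 2431 (exact 95% counting interval 436 to 96070).

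Glycolysis genes were higher in 7 of 31 cases and lower in 2 (at any size 17 and 6), with a median of 0.43. The phosphofructokinase gene Pfkp was at 339 and 342 CPM against 46.9 and 44.7 (2.89 ± 0.08). The enolase Eno2 was at 26.03 and 27.5 CPM against 5.91 and 5.25 (2.26 ± 0.14) and the lactate dehydrogenase Ldhb at 29.8 and 31.7 CPM against 10.04 and 11.2 (1.54 ± 0.12). The abundant members differed less, Ldha by 0.44 ± 0.08 and Aldoa by 0.56 ± 0.10, and Pkm was not called (0.01 ± 0.08). Genes at the exits of the pathway were among those with large differences. Pdk4, which holds back pyruvate dehydrogenase, was at 19.1 and 23.98 CPM against 0.185 and 0.0625, a ratio of 175 (exact 95% counting interval 67.9 to 643) with a log2 fold change of 6.81 to 8.26 without 1 library in turn. Slc16a1, the lactate transporter MCT1, was at 103 and 118 CPM against 261 and 253 (-1.22 ± 0.08). In the pentose phosphate and NADPH list, 3 of 14 were higher and none lower, with a median of 0.44. Tkt, the transketolase, was at 1348 and 1296 CPM against 576 and 509.7 (1.28 ± 0.09), Idh1 at 525 and 547 CPM against 178 and 175 (1.6 ± 0.08) and Me3 at 95.8 and 92.8 CPM against 11.95 and 14.5 (2.83 ± 0.12). G6pdx, the entry enzyme of the pathway, was called at a smaller size (0.91 ± 0.08).

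Few mitochondrial energy genes passed the stricter rule. Among 27 genes of the TCA cycle and pyruvate entry, pyruvate carboxylase (Pcx) was the only one, at 69.8 and 60.5 CPM against 14.97 and 13.5 (2.19 ± 0.13), and at any size 18 were higher and 3 lower, with a median of 0.31. Of 73 nuclear genes of the respiratory chain none was higher and 1 lower. This was Cox7a1, a subunit isoform of heart and muscle named after its value was seen, at 0.0696 and 0.376 CPM against 1.66 and 1.56, a ratio of 6.99 (exact 95% counting interval 3.16 to 18.2). Its log2 fold change was -4.39 without replicate 2 and -2.08 without replicate 1 of MTΔECad. At any size 27 of the 73 were higher and 7 lower, with a median of 0.13. The coactivators of mitochondrial genes were exchanged, with Ppargc1a at 6.96 and 5.76 CPM against 20.8 and 19.9 (-1.68 ± 0.15) and Ppargc1b at 5.22 and 4.95 CPM against 1.79 and 1.44 (1.65 ± 0.23).

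Fatty acid oxidation genes were higher in 24 of 34 cases and lower in 4 at any size, and in 7 and 2 by the stricter rule (median 0.52, or 0.5 with silent genes at their bound). The peroxisomal enzyme gene Ehhadh was at 11.6 and 14.3 CPM against 1.602 and 1.37 (3.12 ± 0.22). Decr1, which handles unsaturated chains, was at 71.5 and 72.5 CPM against 26.5 and 28.9 (1.38 ± 0.09), and the carnitine transferase Cpt2 at 26.03 and 22.5 CPM against 10.7 and 10.6 (1.18 ± 0.12). The gatekeeper Cpt1a was not called (-0.06 ± 0.07). In synthesis, desaturation and storage, 7 of 29 genes were higher and 3 lower (median 0.57, or 0.45 with silent genes at their bound). The stearoyl desaturase genes were abundant and higher in MTΔECad. Scd1 was at 2081 and 2031 CPM against 438 and 467 (2.18 ± 0.09) and Scd2 at 2221 and 2156 CPM against 851 and 868 (1.35 ± 0.07). Fasn, the fatty acid synthase, was called lower, at 281 and 262 CPM against 368 and 406 (-0.51 ± 0.08). Acsl4, which activates polyunsaturated fatty acids, was at 481 and 507 CPM against 1783 and 2080.01 (-1.97 ± 0.10). The desaturase family member Fads3 was at 0.974 and 0.626 CPM against 63.3 and 62.9 (-6.30 ± 0.17). Cholesterol genes did not stand out as a list, with 3 of 28 higher, 1 lower and 14 not called at any size (median 0.14). Over all tested genes 11.3% were higher and 13.1% lower by the stricter rule. The exporter gene Abca1, 1 of the 3, was at 734 and 713 CPM against 147 and 157 (2.25 ± 0.08).

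Pparg encodes the nuclear receptor of fat cell differentiation that rosiglitazone binds (NCBI Gene 19016, chromosome 6, 115360879 to 115490404). It was higher in untreated MTΔECad, at 68.8 and 67.3 CPM against 3.14 and 3.94 CPM in Py2T-LT (4.26 ± 0.13). Its level was 63.2 and 61.8 CPM after rosiglitazone and 11.95 to 25.1 CPM in the treated Py2T-LT libraries. Of 19 adipogenic and adipocyte genes, 8 were higher and 1 lower, with a median of 0.77. The lipid droplet gene Plin4 was at 755 and 718 CPM against 23.04 and 23.1 (4.99 ± 0.10). Lipoprotein lipase (Lpl) was at 1707 and 1572 CPM against 571 and 553 (1.55 ± 0.08) and the fatty acid carrier Fabp4 at 17.5 and 15.4 CPM against 2.09 and 4.06 (2.41 ± 0.22). Leptin (Lep), a fat cell hormone, had no count in Py2T-LT and 6.96 and 6.32 CPM in MTΔECad, at least 35.7-fold higher. Adipoq, the gene of the fat cell hormone adiponectin, had at most 0.5 CPM in a control library.

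**Figure D4:**
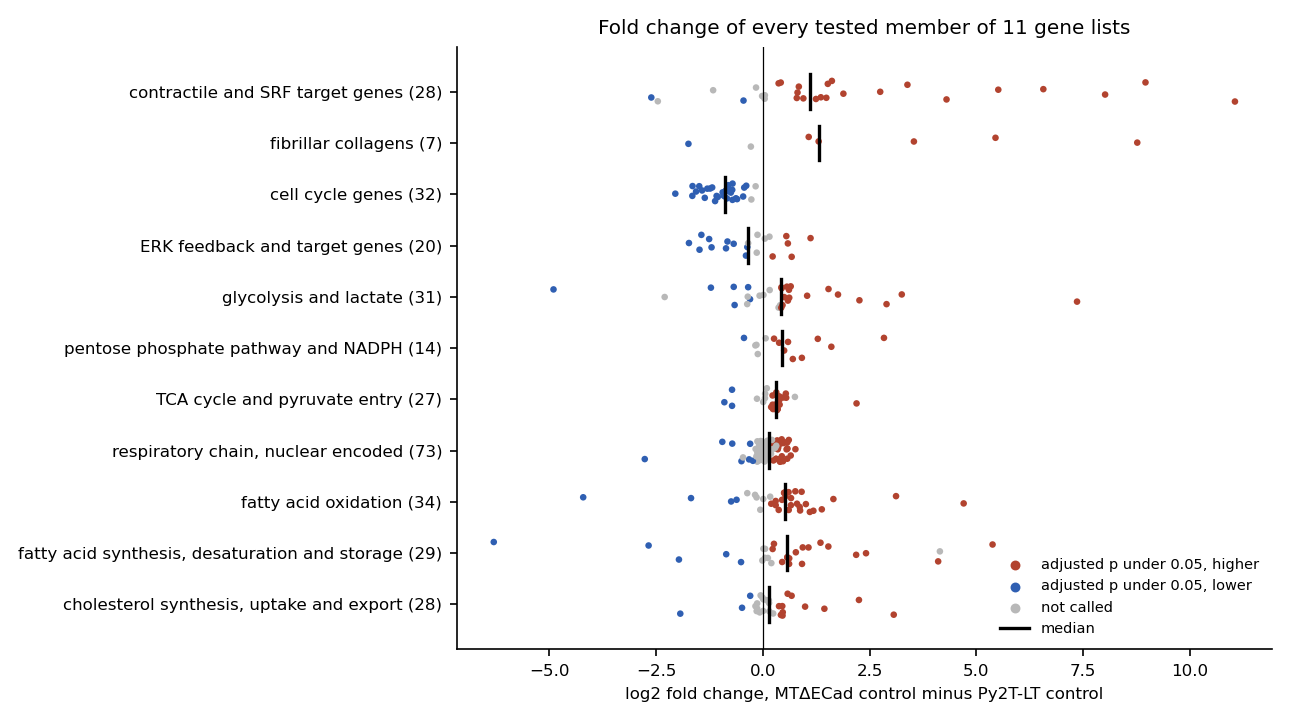
Log2 fold change (x axis, MTΔECad control minus Py2T-LT control) of each tested member of 11 gene lists (y axis, number tested in parentheses), red and blue where the adjusted p passed, grey where it did not, with a bar at the median. Contractile and fibrillar collagen members spread far to the right, 30 of the 32 cell cycle genes are called to the left, and the respiratory chain genes gather near 0. Fold changes of genes with no count in one line are fitted values.

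Retinoid and aldehyde genes were higher in 7 of 28 cases and lower in 6, with a median of 0.4. Aldh3a1, which oxidises lipid aldehydes, was at 3682 and 3700.4 CPM against 611 and 539 (2.68 ± 0.09). The alcohol dehydrogenase gene Adh7 was at 574 and 654 CPM against 18.1 and 17.9 (5.09 ± 0.10). Some genes of the retinoid pathway stood the other way. Rdh10, which oxidises retinol to retinal (NCBI Gene 98711, chromosome 1, 16105882 to 16132550), was at 38.7 and 42.1 CPM in MTΔECad and 1435 and 1548 CPM in Py2T-LT (-5.20 ± 0.09). Aldh1a1, which oxidises retinal, was at 0.974 and 0.876 CPM against 20.8 and 21.7 (-4.51 ± 0.22), and Crabp2, a carrier of retinoic acid, at 6.12 and 6.26 CPM against 79.7 and 74.4 (-3.63 ± 0.11). Of 47 glutathione and detoxification genes, 11 were higher and 6 lower (median 0.35). Mgst1, a membrane glutathione transferase, was at 254 and 268 CPM against 16.1 and 17.2 (3.97 ± 0.09) and Gstm1 at 162 and 164 CPM against 39 and 33.7 (2.16 ± 0.10). Nqo1, a quinone reductase, had no count in MTΔECad and 4.62 and 2.87 CPM in Py2T-LT, at least 18.9-fold lower, and Gclm (0.06 ± 0.08) and Txnrd1 (0.02 ± 0.07) were not called.

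Amino acid genes were higher in 6 of 40 cases and lower in 8, with a median of 0.24. Glutamine synthetase (Glul) was at 5.36 and 5.26 CPM against 226 and 215 (-5.37 ± 0.11). The creatine kinase gene Ckb was at 1.88 and 1.002 CPM against 40.5 and 36.8 (-4.76 ± 0.18). Carriers were divided. Slc7a2, a carrier of arginine, was at 38.8 and 37 CPM against 0.0616 and 0.125, a ratio of 406 (exact 95% counting interval 139 to 1974). Slc38a1, a carrier of glutamine, had 2 counts in MTΔECad against 50.6 and 62.9 CPM, a ratio of 860.4 (exact 95% counting interval 238 to 7110). In the serine, glycine and folate list, 4 of 21 were higher and 1 lower (median 0.03). The entry enzyme Phgdh was called lower at 34.3 and 38.2 CPM against 56.1 and 53.4 (-0.59 ± 0.10), and Cth, of the transsulphuration route, was at 3.76 and 5.76 CPM against 1.48 and 0.9998 (1.94 ± 0.29).

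Cell cycle genes were lower in MTΔECad. Of 32 tested, 13 were lower by the stricter rule and none was higher, and at any size 30 were lower, against 31.7% of all genes. Their median was -0.88, and their summed level was 1112 and 1137 CPM in MTΔECad and 2132 and 2078 CPM in Py2T-LT. Mki67, a marker of cycling cells, was at 145 and 149.7 CPM against 237 and 259.8 (-0.75 ± 0.08). The mitotic kinase gene Cdk1 was at 30.8 and 35.2 CPM against 93.96 and 91.8 (-1.49 ± 0.09), and the replication licensing gene Cdc6 at 3.34 and 3.94 CPM against 15.8 and 14.6 (-2.05 ± 0.19). The difference held between untreated cells. Across all conditions, 3 of the 32 genes had all 4 MTΔECad libraries below all 6 of Py2T-LT, against 24.3% of all tested genes.

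Genes of CDK inhibitors, D cyclins, p53 targets and related growth factors of the cycle were lower in 9 of 30 cases and higher in 3. Their median was -0.67. The list is mixed in function, since it also holds drivers of the cycle such as Ccnd1, among the lower, and Mycn, among the higher (2.81 ± 0.24). The neighbouring genes Cdkn2a and Cdkn2b encode the p16, ARF and p15 inhibitors. Cdkn2a was at 0.348 and 0.438 CPM against 61.5 and 50.9 (-7.12 ± 0.20), and Cdkn2b had no count in MTΔECad against 104 and 93.5 CPM, at least 497-fold lower. MTΔECad controls thus had under 0.5 CPM of either. Mdm2, the ubiquitin ligase of p53 (NCBI Gene 17246, chromosome 10, 117688875 to 117710758), was at 76.1 and 85.8 CPM in MTΔECad and 2735 and 2543 CPM in Py2T-LT (-5.03 ± 0.10). It was at 85.3 and 88.6 CPM after rosiglitazone and 2422 to 3461 CPM in the treated Py2T-LT libraries, without overlap. Other p53 targets differed less or in the other direction. Cdkn1a, the p21 inhibitor, was at 15.9 and 18.8 CPM against 27.5 and 30.6 (-0.74 ± 0.12), and the death receptor gene Fas at 117 and 128 CPM against 16.9 and 19.6 (2.75 ± 0.10). The inhibitor gene Cdkn2c was at 159.5 and 174 CPM against 40.8 and 43.8 (1.98 ± 0.08). Trp53 itself was not called, at 53.8 and 41.4 CPM against 47.4 and 38.2 (0.15 ± 0.13), but was without replicate 2 of MTΔECad (0.33, adjusted p = 0.046).

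Some of these genes lie in stretches of the genome where neighbouring genes differed together. On chromosome 14, 158 of 437 tested genes (36.2%) were higher and 82 (18.8%) lower, and 20% were lower on chromosome 10 and 19.9% on chromosome X. Windows of 20 neighbouring tested genes were ranked by their median log2 fold change. Mdm2 lies in the lowest one, on chromosome 10 from Cpsf6 to Tbc1d30 (117344667 to 121351644), with a median of -3.05 and 11 genes lower. Its neighbour Nup107, a nuclear pore gene, was at 30.2 and 36.2 CPM against 1236 and 1155 (-5.17 ± 0.10). Rap1b, a small GTPase gene of the same window, was at 199 and 197 CPM against 2603 and 2720.1 (-3.75 ± 0.09). Acta2, Fas and Il33 lie in a window of chromosome 19 (29925113 to 34883423) with a median of 1.52 and 13 genes higher. Sema3c is at the edge of one on chromosome 5 (7960472 to 17730268) with a median of -1.79 (-1.06 with silent genes at their bound). Chromosome 14 held windows of both signs. One from Mustn1 to Hacl1 (30879257 to 31640965) had a median of 1.47 and 18 genes higher, and one from Scara5 to Loxl2 (65666403 to 69695834) a median of -1.77 (-1.39 with silent genes at their bound) and 12 genes lower. These windows were chosen for their medians, and whether gene dose differs there was not tested.

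**Figure D5:**
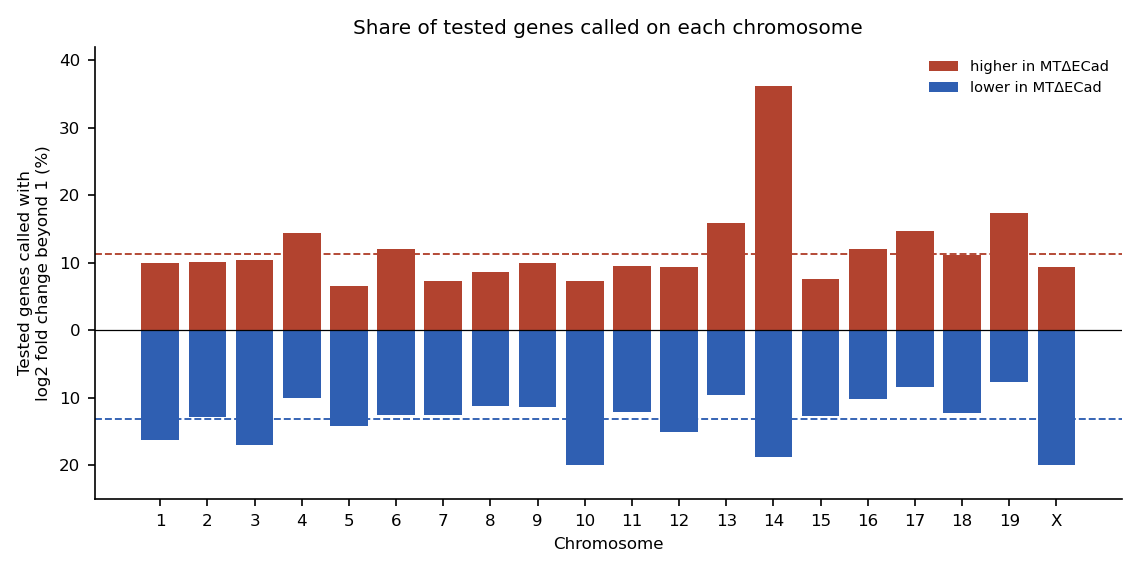
Share of the tested genes on each chromosome (x axis) with an adjusted p under 0.05 and a log2 fold change beyond 1, in percent, higher in MTΔECad upward (red) and lower downward (blue), with dashed lines at the shares over all tested genes. Chromosome 14 reaches 36.2% higher and 18.8% lower, and chromosomes 10 and X reach 20% and 19.9% lower.

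Imprinted and X-linked dosage genes were lower in 7 of 13 cases and higher in 2, with a median of -3.35 (-2.61 with silent genes at their bound). Kcnq1ot1, an antisense RNA of an imprinted cluster, had no count in MTΔECad and 92.7 and 123 CPM in Py2T-LT, at least 545-fold lower. Since strand use in the counting is not given, its reads cannot be told apart from those of the overlapping Kcnq1. Snrpn, a paternally expressed gene, had no count against 4.56 and 5.06 CPM, at least 24.3-fold lower. Impact, also paternally expressed, was at 186 and 224 CPM against 43.7 and 47.9 (2.16 ± 0.10). Xist, which silences an X chromosome, was present in both lines and not called, at 899.9 and 735 CPM against 414 and 837 (0.39 ± 0.33). Its Py2T-LT replicates lay far apart, and it was called without replicate 2 of Py2T-LT (0.98, adjusted p = 1e-07).

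Markers of other cell types were checked against the label of mesenchymal breast cancer cells. Haematopoietic markers summed to 5.36 and 6.2 CPM in MTΔECad and 0.678 and 0.562 CPM in Py2T-LT, mostly from Cd53, at 4.802 and 5.32 CPM against 0.185 and 0.312. Endothelial and skeletal muscle markers reached at most 1.63 CPM in any control library. Schwann and neural markers summed to 4.32 and 2.94 CPM against 42.9 and 41.2 CPM, mostly from S100b, at 0.626 and 0.125 CPM against 34.4 and 32.2 (-6.49 ± 0.27, and -7.97 to -5.72 without 1 library in turn). Fibroblast markers, which mesenchymal cancer cells share, had reads in both lines. They summed to 3791 and 3624 CPM in MTΔECad and 543 and 524 CPM in Py2T-LT. Basal mammary markers summed to 2668 and 2465 CPM against 20.5 and 18.8 CPM, in MTΔECad almost wholly through Acta2. The basal keratin gene Krt5 had no count in any of the 4 controls, and Krt14 was not called, at 10.1 and 8.64 CPM against 10.8 and 9.44 (-0.12 ± 0.14). Luminal mammary markers summed to 271 and 284 CPM against 648 and 603 CPM. The part of other cells in the differences above was not tested.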

How the data were processed

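Gene counts per library, as deposited by the authors, were used without change. Reads were aligned with STAR to mm10, per the submitters' processing notes, while for the counting tool, its annotation and its use of strand the sources used here give nothing. The protocols name a stranded total RNA kit and also poly-A RNA. The table held 18103 NCBI Gene identifiers. All but 43 (0.763% of counts) were matched to a symbol, nearly all through RefSeq GRCm38.p6, the same assembly as mm10, which also gave the coordinates.

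Counts were scaled by TMM, filtered with filterByExpr and fitted with edgeR 4.0.16 (robust quasi-likelihood, R 4.3.3) over all 10 libraries in 5 groups, which left 5 residual degrees of freedom. P-values were adjusted by Benjamini-Hochberg over 13149 genes at 0.05. The standard error is the log2 fold change divided by the root of F. The fit was also run on simulated counts, in which far fewer genes changed than here and all genes had the same spread. That run therefore does not show how the fit performs on a difference as broad as this one. P-values measure the spread between libraries of 1 line each. At these depths a gene with 3 counts stands at 0.209 CPM or less, which limits what can be seen of rare mRNAs.

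The comparison and the gene lists were chosen with earlier results of these data known, so the lists are described by counts and medians beside those of all genes. Named genes were Cdh1, the 12 largest folds in each direction among called genes of at least 20 CPM in the higher line, the 8 largest differences in CPM in each direction, preset members of each list, and up to 6 called members a direction of each list with at least 2 CPM, from which a selection is shown. Alternatives were RLE scaling, no filter on low counts, a fit of the 4 controls alone, the replicate number as a block, DESeq2 1.42.0 and leaving out each control library.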

Additional observations from a re-analysis of the deposited data

How the results depend on the processing

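Every count of genes over the whole table stayed within 1.5 times its value under each alternative run. The genes called numbered 8020 under RLE scaling, 8312 without a filter on low counts, 7757 in a fit of the 4 controls alone, 7294 with DESeq2 and 6957 to 7521 without 1 control library. Between 84.2% and 99.8% of the 8020 called genes were called again. Separation of 4 against 6 libraries held for 6233 genes under RLE scaling, and the log2 fold change of Cdh1 ran from -3.90 to -3.71. Of 1080 counts of list members over all alternatives, 1055 stayed within 1.5 times. Of 615 named genes that were called, 51 were not called without some 1 library. The log2 fold change of Hspg2 reversed, from -0.31 to 1.05, without replicate 2 of the Py2T-LT controls, and was -0.99 without replicate 1. With the replicate number as a block, 8091 genes were called (99.6% of the 8020 among them) and no named call was lost. Deviations of same-numbered libraries correlated at -0.106 to 0.1, and at -0.058 between the 2 controls, so no strong shared deviation was seen. With 2 libraries a group, this cannot tell whether same-numbered libraries came from the same experiment, which the labels do not say. With 2 libraries a line and 1 line on each side, no alternative bears on whether other lines of either kind would differ alike.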
